A study of Mus musculus with 12 samples.

Results

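The collagen genes of mouse embryonic fibroblasts were followed while the cells were driven towards induced motor neurons. They are the rows of the deposited expression table whose symbol is Col, a type number, the letter a and a chain number. Of 44 such rows, 39 had a normalized read count of at least 10 in at least 3 of the 11 libraries and were kept, out of 14207 genes kept by the same rule among 23077 in the table. The rows left out were Col4a3, Col4a4, Col6a5, Col19a1 and Col22a1. The values nearest to that limit were those of Col6a6 and Col9a3, with a third-highest value of 10.6 and 11.0, and of Col22a1 on the other side, with 7.80.

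All cells were primary fibroblasts carrying the Hb9::GFP reporter, and all were infected with a retrovirus encoding NIL, the motor neuron factors Ngn2, Isl1 and Lhx3 joined by 2A peptides. The RISDD group (3 libraries) also received HRAS(G12V), a constitutively active Ras protein, followed by an internal ribosome entry site (IRES) and SNAP-p53DD, a dominant-negative p53 fragment fused to a SNAP tag. The SDDIR group (2 libraries) received the same cassette in the other order, with SNAP-p53DD before the IRES and HRAS(G12V) after it; translation behind an IRES tends to be weaker. The SDD group (3 libraries) received SNAP-p53DD without HRAS, and the NIL group (3 libraries) received NIL alone. Per the labels, the N3 medium was given at day 3 and RNA was taken at day 4. RepSox, which blocks the receptor for TGF-beta, was added from day 3 to RISDD, SDDIR and SDD cells, and these were sorted for the SNAP tag; NIL cells had no RepSox and were sorted as live single cells. SDD and NIL thus differ in p53DD, RepSox and the sort together, which cannot be told apart. RISDD, SDDIR and SDD share all of these and differ in HRAS and its place. In RISDD, SNAP-p53DD also lies behind the IRES. The place of HRAS and that of SNAP-p53DD therefore change together and cannot be told apart. Libraries are named by group and replicate letter. The labels call the replicates biological without naming separate cultures, so the p-values reflect the spread among these libraries alone, which may be technical.

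Collagens are secreted or membrane proteins whose chains wind into triple helices. Fibroblasts are the main source of the fibril-forming types I, III and V, which give connective tissue its strength. Type IV forms the mesh of basement membranes and type VI a beaded filament around cells. The FACIT collagens (types IX, XII, XIV, XVI and XX here) sit on the surface of fibrils. Newly made chains are hydroxylated and folded in the endoplasmic reticulum, trimmed outside the cell and crosslinked by lysyl oxidases. TGF-beta is a known inducer of collagen genes in fibroblasts, and loss of fibroblast gene expression is a usual part of conversion to neurons.

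Each library held 14872639 to 29815073 reads. Trp53, whose row counts reads of the p53DD fragment too, stood at 43128 to 46185 in RISDD, 29277 to 37068 in SDDIR, 32346 to 40363 in SDD and 2873 to 3674 in NIL, higher in every library labelled with p53DD; the mouse Hras row, 1088 to 1234 in RISDD, 911 to 933 in SDDIR, 829.9 to 981 in SDD and 1129 to 2342 in NIL, is no check of the delivered HRAS. Fibroblast markers fixed as a list were present in every group, with a summed value of 116500 to 131110 in RISDD, 116400 to 135090 in SDDIR, 186080 to 195870 in SDD and 250730 to 400820 in NIL. Vim, which alone of the 12 rose with HRAS, made up much of these sums, with a mean of 88442 in RISDD, 66443 in SDDIR, 40592.5 in SDD and 82238.5 in NIL. NIL C stood apart: 0.537% of its signal came from mitochondrially encoded genes, against 2.60% to 4.04% in the other 10 libraries, and it was the highest NIL library for 17 of the 20 collagen genes with a group mean of at least 1000. Results that rest on NIL are therefore given with and without it. In these bulk libraries, fewer cells of a type and less RNA per cell cannot be told apart.

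The collagen genes as a whole took up a smaller part of the transcriptome in both HRAS groups. Their summed value was 0.806%, 0.797% and 0.809% of the library in RISDD and 1.22% and 1.37% in SDDIR, against 4.35%, 3.56% and 3.76% in SDD. NIL libraries held 4.44%, 4.34% and 6.43%, and the last of these is NIL C. The RISDD, SDDIR and SDD libraries did not overlap, and RISDD lay below SDDIR. The mean was 3.09 percentage points lower in RISDD than in SDD and 2.60 points lower in SDDIR than in SDD. SDD lay 1.18 points below NIL, but only 0.499 points below it without NIL C. The make-up of the collagen signal differed as well. Col1a1, Col1a2 and Col3a1 together gave 49.3% ± 0.781 of it in RISDD (SD, n = 3) and 58.1% ± 1.88 in SDDIR (SD, n = 2), against 71.7% ± 1.11 in SDD (SD, n = 3) and 71.0% ± 1.38 in NIL (SD, n = 3). The multiplexins, nearly all Col18a1, gave 22.1% in RISDD and 14.7% in SDDIR, against 1.88% in SDD and 2.31% in NIL.

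**Figure D1:**
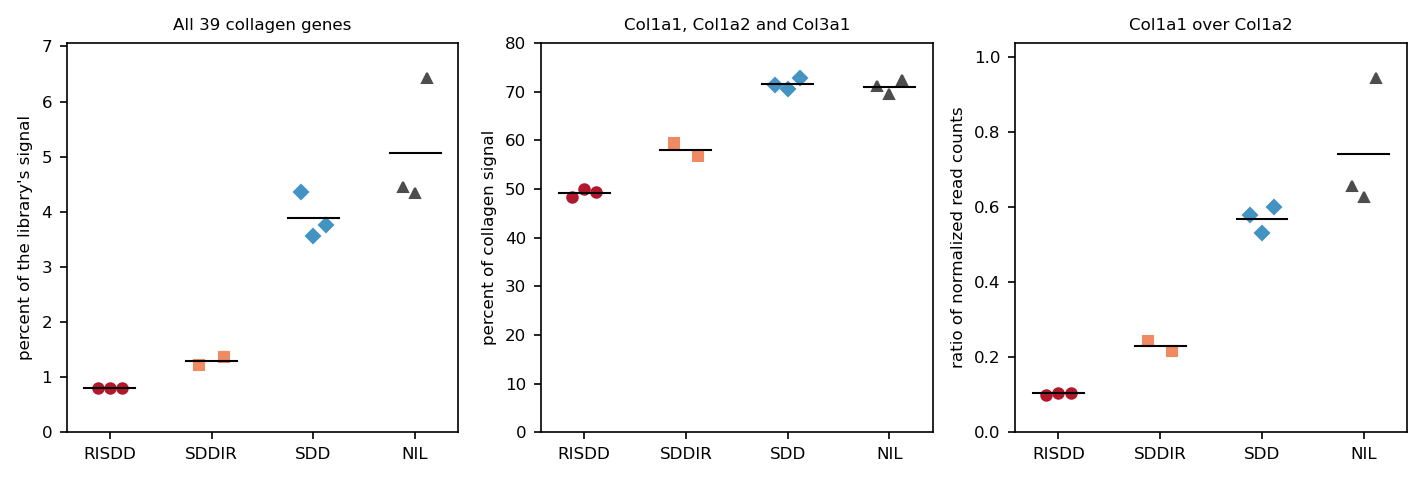
Collagen signal by group, in the order RISDD, SDDIR, SDD, NIL, with 1 symbol per library and the group mean as a line. The left panel shows the summed collagen value as a percent of the library, the middle panel the percent of that sum from Col1a1, Col1a2 and Col3a1, and the right panel the Col1a1 value divided by the Col1a2 value; in all 3 panels the RISDD libraries lie lowest and the SDDIR libraries next.

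Gene by gene, most collagens were lower with HRAS. Changes were tested with limma on log2(value + 1), all folds are on that scale, and a gene was called at a Benjamini-Hochberg adjusted p under 0.05 over the 14207 genes. In RISDD against SDD, 25 of the 39 collagen genes were called lower and 3 higher, where 42.6% of all genes were called (22.6% lower and 20.0% higher). In SDDIR against SDD, 24 were called lower and 2 higher, where 22.5% of all genes were called (13.9% lower and 8.66% higher). The 39 include Col4a6, Col6a4, Col6a6, Col8a2, Col9a1 and Col9a2, which reached 10 in no HRAS library. They were kept through SDD and NIL alone. A lower value with HRAS was therefore likely in advance for them, and their calls are not read as support. The median log2 change of the 39 genes was -2.12 in RISDD against SDD and -1.43 in SDDIR against SDD, beside 0.02 and 0.01 over all genes. Col6a6, a rare type VI chain, was at 0 in all 5 HRAS libraries, and with it at the limit that 3 reads per library allow the medians were -2.01 and -1.43. Of the calls, 24 were at least 2-fold lower and 3 at least 2-fold higher in RISDD against SDD (15.2% and 10.0% of all genes), and 24 and 2 in SDDIR against SDD (9.81% and 4.54% of all genes). Both share the SDD libraries, so their directions are not independent of each other. Without SDDIR A, a single SDDIR library remains and is assumed to vary like the other groups. Fewer genes were then called in SDDIR against SDD, among the collagen genes and over all genes.

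**Figure D2:**
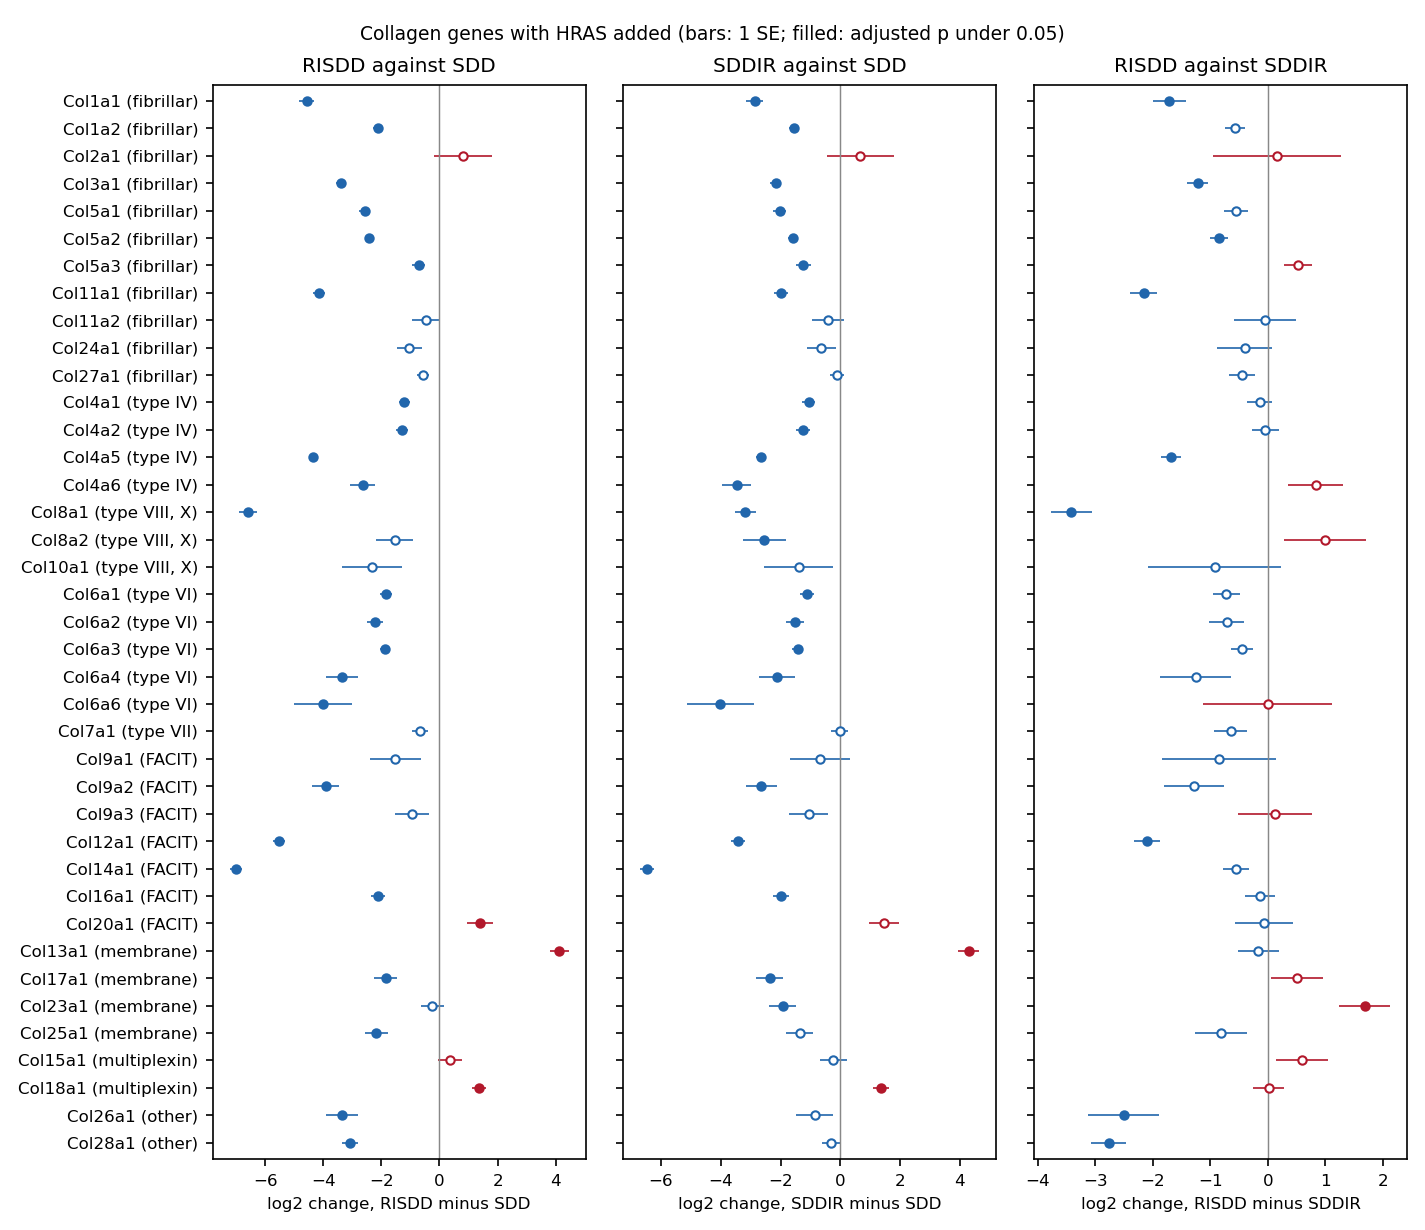
Log2 change of each of the 39 collagen genes in RISDD against SDD, SDDIR against SDD and RISDD against SDDIR, with bars of 1 SE; red marks a positive and blue a negative change, and filled symbols an adjusted p under 0.05. In the left and middle panels most filled symbols lie left of 0, and Col13a1 and Col18a1 lie right of it in both.

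Some markers of cell identity moved in the same comparisons, where 42.6% of all genes were called in RISDD and 22.5% in SDDIR, against SDD. Leukocyte markers, with 37.5% and 25% of the list called, did not stand out from those shares. Nor did Schwann cell and neural crest markers, with 40% and 0%. In SDDIR, neuron markers with 12.5% and endothelial markers with 25% did not stand out either. Of the 12 fibroblast markers, 11 were called lower and 1, Vim, higher in RISDD against SDD, and 9 lower and Vim higher in SDDIR against SDD. None of the 12 was at 0 in any group. The summed epithelial markers (Epcam, Cdh1, Krt8, Krt18, Krt14, Cldn4 and Dsp) were 8668 to 12760 in RISDD and 2429 to 3765 in SDDIR, against 59.6 to 72.2 in SDD, and 6 of the 6 tested were called higher in RISDD and 2 in SDDIR. Krt14 was at 0 throughout both HRAS groups, and Cdh1, Krt14 and Cldn4 were at 0 throughout SDD. The summed osteoblast markers, almost all of them Spp1, were 111940 to 134710 in RISDD and 27131 to 33643 in SDDIR, against 5967 to 10024 in SDD; 2 of the 3 tested (Spp1 and Runx2) were called higher in each HRAS group, Ibsp was at 0 in all of these libraries, and Bglap was at 0 throughout SDDIR and SDD. Smooth muscle and pericyte markers summed to 1059 to 1704 in RISDD and 1133 to 1854 in SDDIR, against 4445 to 5301 in SDD, with 4 of 6 called lower and Rgs5 higher in RISDD, 3 lower in SDDIR, and none at 0. Neuron markers summed to 10268 to 11328 in RISDD and 4833 to 5086 in SDDIR, against 6460 to 11649 in SDD; of 8 tested, 3 (Stmn2, Nefl and Snap25) were called higher and 4 lower in RISDD and 1 (Dcx) lower in SDDIR, with none at 0. Endothelial markers summed to 529.5 to 625 in RISDD and 172 to 178 in SDDIR, against 82.3 to 111 in SDD; of 4 tested, 3 (Vwf, Pecam1 and Cdh5) were called higher in RISDD and 1 (Cdh5) in SDDIR, and Emcn was at 0 in all 3 groups. Leukocyte markers summed to 677 to 1203 in RISDD and 359 to 809 in SDDIR, against 547 to 1460 in SDD; of 8 tested, Adgre1 and Csf1r were called lower and Cd68 higher in RISDD, and Adgre1 lower and Cd68 higher in SDDIR, where Cx3cr1 and Cd3e were at 0. Schwann cell and neural crest markers summed to 63.1 to 113 in RISDD and 67.8 to 111 in SDDIR, against 76.8 to 139 in SDD; of 5 tested, Ngfr was called lower and Erbb3 higher in RISDD, and none was at 0. Of 4 chondrocyte markers tested, 0 were called. The part of these shifts in the collagen changes was not tested.

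The fibril-forming collagens made up most of the collagen signal, 57.9% in RISDD and 66.3% in SDDIR, against 80.1% in SDD and 82.7% in NIL. Of the 11 tested, 7 were called lower in each HRAS group against SDD and 0 higher. Col1a1, the alpha-1 chain of type I collagen, stood at 5463, 6045 and 5956 in RISDD, 19108 and 18958 in SDDIR, 156762, 120214 and 141643 in SDD and 180322, 162151 and 368794 in NIL. Its libraries did not overlap between any 2 neighbouring groups. It was 23.9-fold lower in RISDD than in SDD (log2 change -4.58, SE 0.26, adjusted p = 5.29e-07) and 7.29-fold lower in SDDIR (log2 change -2.87, SE 0.29, adjusted p = 0.000110). Col1a2, which encodes the alpha-2 chain that assembles with it, stood at 55011, 56878 and 56053 in RISDD, 78144 and 87902 in SDDIR, 271169, 226245 and 236381 in SDD and 274599, 258869 and 390531 in NIL. Its folds were smaller: it was 4.36-fold lower (adjusted p = 3.06e-06) in RISDD and 2.94-fold lower (adjusted p = 0.000187) in SDDIR than in SDD, and SDD overlapped NIL. With quantile scaling the log2 change of Col1a2 in SDDIR was -0.95, against -1.56. Col3a1, the chain of type III collagen found with type I in skin and vessels, stood at 11571, 12519 and 11763 in RISDD, 25370.5 and 30426 in SDDIR, 140438, 112678 and 123585 in SDD and 142422, 156481 and 217224 in NIL. It was 10.5-fold lower (adjusted p = 2.11e-07) in RISDD and 4.50-fold lower (adjusted p = 4.12e-05) in SDDIR than in SDD, with all 4 groups apart.

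The balance of the partner chains of type I collagen differed between groups. The Col1a1 value divided by the Col1a2 value was 0.0993, 0.106 and 0.106 in RISDD and 0.244 and 0.216 in SDDIR, against 0.578, 0.531 and 0.599 in SDD and 0.657, 0.626 and 0.944 in NIL. The 4 groups did not overlap in this ratio, which is not corrected for transcript length and is read between groups only. Its geometric mean was 5.48-fold lower in RISDD and 2.48-fold lower in SDDIR than in SDD. An exact permutation test over libraries cannot go below a two-sided p of 0.1 for 3 against 3 or 0.2 for 2 against 3, and gave those values; it is 1 of 7 chain ratios computed. The Col3a1 to Col1a2 ratio was 0.213 in RISDD and 0.335 in SDDIR, against 0.513 in SDD (geometric means). The Col4a1 to Col4a2 ratio, for the paired chains of type IV collagen, averaged 1.19 in RISDD and 1.28 in SDDIR, against 1.13 in SDD and 1.01 in NIL (geometric means). Its groups did not overlap either, with the same smallest p values, but it differed by at most 1.13-fold from SDD in the HRAS groups. The Col8a1 to Col8a2 ratio, whose second chain was scarce, was 16.9 in RISDD and 499 in SDDIR, against 499 in SDD and 51.7 in NIL (geometric means). It scattered widely, at 803 and 310 in SDDIR and 341, 1071 and 341 in SDD. Col8a2 stood at only 0.847 in SDDIR A, so the equal means do not show an unchanged ratio. The ratio was 29.5-fold lower in RISDD than in SDD, without overlap.

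Type V collagen controls the diameter of type I fibrils. Col5a1 stood at 4572, 4523 and 4392 in RISDD, 6648 and 6532 in SDDIR, 29326, 25161 and 26188 in SDD and 52807, 52558 and 91212 in NIL, and was 5.97-fold lower (adjusted p = 3.14e-06) in RISDD and 4.07-fold lower (adjusted p = 0.000130) in SDDIR than in SDD. Col5a2 stood at 3886, 4192 and 4069.6 in RISDD, 7978 and 6669.8 in SDDIR, 25277, 20183 and 20612 in SDD and 31439, 34325 and 40648 in NIL, and was 5.41-fold lower (adjusted p = 5.16e-07) in RISDD and 3.00-fold lower (adjusted p = 8.76e-05) in SDDIR. For both genes the groups stood in the same order with no overlap, RISDD lowest and NIL highest. Col5a3, a type V chain of narrower expression, stood at 3087, 3195 and 4117 in RISDD, 2099.5 and 2728 in SDDIR, 5988, 5576 and 5379.7 in SDD and 6711, 7669 and 12528 in NIL. Here SDDIR was the lowest group: the gene was 2.36-fold lower (adjusted p = 0.00490) in SDDIR, and 1.64-fold lower (adjusted p = 0.0233) in RISDD. In RISDD, the call of Col5a3 ended without RISDD A or B or SDD A, B or C (adjusted p between 0.0516 and 0.0856); in SDDIR, this call ended without SDDIR A (adjusted p = 0.0655).

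Col11a1, a chain of type XI collagen that nucleates thin fibrils in cartilage and is also made by fibroblasts, stood at 320.3, 284 and 192 in RISDD, 1258 and 1076 in SDDIR, 5842, 4334 and 3786 in SDD and 5045, 4385 and 5096 in NIL. It was 17.6-fold lower (adjusted p = 2.69e-07) in RISDD and 3.93-fold lower (adjusted p = 0.000264) in SDDIR than in SDD, while SDD and NIL overlapped. Col27a1, a minor fibrillar collagen of developing cartilage, stood at 481, 545 and 530.3 in RISDD, 649.6 and 771 in SDDIR, 733, 857 and 709 in SDD and 1127, 1420.2 and 2152 in NIL. No call was made for it with HRAS (log2 change -0.56, adjusted p = 0.0525 in RISDD; log2 change -0.11, adjusted p = 0.803 in SDDIR), although the RISDD libraries lay below every SDD library and the gene was called lower in RISDD without NIL A (adjusted p = 0.0251) or NIL C (adjusted p = 0.00159). The remaining fibrillar genes were scarce. Col24a1 ranged over 7.11 to 11.1 in RISDD, 7.11 to 20.3 in SDDIR, 17.4 to 23.7 in SDD and 40.8 to 79.8 in NIL; Col11a2 over 19.2 to 37.1 in RISDD, 22.9 to 30.8 in SDDIR, 19.3 to 58.6 in SDD and 21.2 to 56.3 in NIL; and Col2a1, the type II collagen of cartilage, over 10.3 to 12.1 in RISDD, 5.93 to 16.1 in SDDIR, 3.38 to 11.7 in SDD and 0 to 26.0 in NIL. None of these 3 was called in either HRAS group. For Col24a1, however, the RISDD libraries lay below every SDD library (log2 change -1.035, adjusted p = 0.0759). Without NIL C, Col24a1 was called lower in RISDD than in SDD (adjusted p = 0.0413).

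All 4 type IV genes tested were called lower in both HRAS groups, but Col4a6 was kept through SDD and NIL alone. Col4a1 and Col4a2 encode the chains of the common basement membrane network and lie head to head on chromosome 8. Col4a1 stood at 4412, 4581 and 4026 in RISDD, 4029.7 and 5679 in SDDIR, 11392, 10088 and 8676 in SDD and 14425, 15859.6 and 23595 in NIL. Col4a2 stood at 3776, 3866 and 3305 in RISDD, 3176 and 4413 in SDDIR, 9884, 9158 and 7678 in SDD and 13959, 15430.4 and 24689 in NIL. For both genes the HRAS groups overlapped each other and lay below SDD, which lay below NIL. Col4a1 was 2.31-fold lower (adjusted p = 0.000680) in RISDD and 2.09-fold lower (adjusted p = 0.00647) in SDDIR than in SDD; Col4a2 was 2.43-fold lower (adjusted p = 0.000728) and 2.37-fold lower (adjusted p = 0.00412) in the same groups. Because these genes were called lower together in RISDD and SDDIR against SDD and in SDD against NIL, their start regions are shown, from 250 bases before to 50 bases after each start in RefSeq's GRCm38.p6 annotation, with the 78 bases that the opposite-strand windows share in capitals. The annotated starts lie 21 bases apart. The windows are chr8:11312777-11313076 on the minus strand for Col4a1 and chr8:11312555-11312854 on the plus strand for Col4a2.
Col4a1: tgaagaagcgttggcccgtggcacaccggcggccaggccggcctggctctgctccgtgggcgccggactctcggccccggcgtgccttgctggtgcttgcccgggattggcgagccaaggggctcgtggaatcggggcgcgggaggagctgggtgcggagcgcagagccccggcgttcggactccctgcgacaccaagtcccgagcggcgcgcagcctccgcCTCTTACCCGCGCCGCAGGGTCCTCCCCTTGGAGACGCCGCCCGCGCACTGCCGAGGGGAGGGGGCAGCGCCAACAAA
Col4a2: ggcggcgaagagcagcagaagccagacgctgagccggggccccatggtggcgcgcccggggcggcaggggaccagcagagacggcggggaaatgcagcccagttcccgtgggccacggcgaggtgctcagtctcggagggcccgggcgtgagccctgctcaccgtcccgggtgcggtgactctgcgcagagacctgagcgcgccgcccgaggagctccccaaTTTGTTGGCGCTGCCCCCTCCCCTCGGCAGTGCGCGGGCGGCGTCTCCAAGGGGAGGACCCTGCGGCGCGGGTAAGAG
A shared stretch is a description, not a cause. In SDDIR against SDD, the call of Col4a1 ended without SDDIR A (adjusted p = 0.0890), and that of Col4a2 likewise (adjusted p = 0.0602).

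Col4a5, a type IV chain of specialised basement membranes such as that of the kidney, had larger folds than Col4a1 and Col4a2. It stood at 49.5, 54.6 and 48.2 in RISDD, 196 and 139 in SDDIR, 1096, 1014 and 1025 in SDD and 1801, 2096 and 2038 in NIL, with no overlap between neighbouring groups. The gene was 20.2-fold lower in RISDD (log2 change -4.34, SE 0.15, adjusted p = 6.86e-08) and 6.29-fold lower in SDDIR (log2 change -2.65, SE 0.17, adjusted p = 1.24e-05). Its chromosomal neighbour Col4a6, also on the X chromosome, ranged over 2.47 to 5.06 in RISDD, 0.847 to 2.37 in SDDIR, 20.3 to 39.5 in SDD and 40.1 to 53.7 in NIL and was 6.21-fold lower (adjusted p = 0.000639) in RISDD and 11.1-fold lower (adjusted p = 0.000674) in SDDIR, at low values in the HRAS libraries, where the pseudocount matters: with a pseudocount of 10 the log2 changes were -1.45 and -1.67, against -2.63 and -3.47 with 1.

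The 5 type VI genes tested were all called lower in both HRAS groups, but Col6a4 and Col6a6 were kept through SDD and NIL alone. Col6a1, Col6a2 and Col6a3 encode the classic chains, which assemble into a shared microfibril. Col6a1 stood at 4635, 3776 and 4749 in RISDD, 6544 and 7902 in SDDIR, 18115, 14071 and 15026 in SDD and 17765, 15647 and 28224 in NIL, and was 3.58-fold lower (adjusted p = 5.68e-05) in RISDD and 2.18-fold lower (adjusted p = 0.00653) in SDDIR. Col6a2, its neighbour on chromosome 10, stood at 2991, 2187 and 2967 in RISDD, 3751 and 5176 in SDDIR, 14512, 11311 and 12034 in SDD and 14344, 12525 and 27374 in NIL, and was 4.67-fold lower (adjusted p = 9.06e-05) in RISDD and 2.85-fold lower (adjusted p = 0.00526) in SDDIR. Col6a3 stood at 11851, 11992 and 12602 in RISDD, 14739 and 18418 in SDDIR, 49507, 39635 and 44142 in SDD and 36099, 33483 and 51996 in NIL, and was 3.64-fold lower (adjusted p = 1.28e-05) in RISDD and 2.69-fold lower (adjusted p = 0.000543) in SDDIR. For all 3 genes SDD and NIL overlapped, and RISDD lay below SDDIR and SDDIR below SDD with no overlap. The folds of these partner chains lay closer together than those of Col1a1 and Col1a2. The rarer chains were near the detection limit. Col6a4 ranged over 0 to 2.37 in RISDD, 2.54 to 4.74 in SDDIR, 14.7 to 21.5 in SDD and 16.7 to 38.8 in NIL and was called lower in both groups (adjusted p = 0.000625 in RISDD and 0.0312 in SDDIR), with log2 changes of -3.37 and -2.12, or -1.37 and -1.08 with a pseudocount of 10. Col6a6 had 0 reads in all 5 HRAS libraries, against 37.2, 10.6 and 8.60 in SDD and 7.32, 0 and 17.5 in NIL, which is at least 4.02-fold lower in RISDD and at least 4.01-fold lower in SDDIR than in SDD at a limit of 3 reads per library, on the log2(value + 1) scale. In SDDIR against SDD, Col6a3 kept its call in all 23 alternatives, but the other calls rested on single libraries: the call of Col6a1 ended without SDDIR A (adjusted p = 0.0756), the call of Col6a2 ended without SDDIR A (adjusted p = 0.0689), the call of Col6a4 ended without SDDIR A or B or SDD A, B or C (adjusted p between 0.0538 and 0.208), and the call of Col6a6 ended without SDDIR A or B or SDD A or B (adjusted p between 0.0513 and 0.127).

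Among the network-forming collagens, Col8a1 showed a stepwise loss. This type VIII chain, known from vessel walls and the cornea, stood at 100.2, 99.1 and 52.2 in RISDD, 680.1 and 1104 in SDDIR, 10763, 8282 and 5447 in SDD and 4655, 4892 and 3569.9 in NIL. No 2 neighbouring groups overlapped, and here SDD rather than NIL was highest. The gene was 96.6-fold lower in RISDD (log2 change -6.59, SE 0.32, adjusted p = 2.11e-07) and 9.06-fold lower in SDDIR (log2 change -3.18, SE 0.35, adjusted p = 0.000179) than in SDD. Its partner chain Col8a2 was much rarer, at 3.03 to 7.11 in RISDD, 0.847 to 3.56 in SDDIR, 7.74 to 31.6 in SDD and 41.2 to 143 in NIL, and was called lower in SDDIR (5.83-fold, adjusted p = 0.0264) but not in RISDD (log2 change -1.54, adjusted p = 0.0744). In SDDIR, this call ended without SDD A or C. With a pseudocount of 10 it ended as well (log2 change -1.14, adjusted p = 0.103), against a log2 change of -2.54 with 1. Without SDDIR A the log2 change was -1.89. Col10a1, the type X collagen of hypertrophic cartilage, ranged over 1.24 to 10.1 in RISDD, 3.39 to 21.3 in SDDIR, 15.4 to 62.9 in SDD and 26.0 to 326 in NIL, the highest value coming from NIL B alone, and was not called. Col7a1, which forms the anchoring fibrils of skin, stood at 219, 210.3 and 125 in RISDD, 259 and 305 in SDDIR, 355, 319 and 205 in SDD and 739, 951 and 737 in NIL, and was not called in either HRAS group (adjusted p = 0.0616 in RISDD and 0.970 in SDDIR).

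Col14a1 had the largest fold of the 39 genes in both HRAS groups against SDD. Of the 7 FACIT genes tested, 4 were called lower in each HRAS group, among them Col9a2, which was kept through SDD and NIL alone. Col14a1, the chain of type XIV collagen that decorates fibrils in skin and tendon, stood at 21, 28.3 and 22.9 in RISDD, 28.8 and 43.9 in SDDIR, 3358, 2737 and 3641 in SDD and 2205, 1708 and 2305 in NIL. The gene was reduced to low values in both HRAS groups, and RISDD lay just below SDDIR. It was 129-fold lower in RISDD (log2 change -7.02, SE 0.20, adjusted p = 1.91e-08) and 88.2-fold lower in SDDIR (log2 change -6.46, SE 0.23, adjusted p = 5.34e-07) than in SDD. Col12a1, of the related type XII that links fibrils in tendon and muscle, stood at 414, 555 and 402 in RISDD, 1765 and 2124 in SDDIR, 26789, 20343 and 16423 in SDD and 19654, 24527 and 19082 in NIL. SDDIR lay between RISDD and SDD with no overlap: Col12a1 was 45.8-fold lower (adjusted p = 6.86e-08) in RISDD and 10.7-fold lower (adjusted p = 1.29e-05) in SDDIR. SDD and NIL overlapped for Col12a1. Col16a1, a fibril-associated collagen of skin, stood at 451, 428 and 418 in RISDD, 515 and 437 in SDDIR, 2070.2, 1721 and 1909 in SDD and 2659, 2163 and 4717 in NIL, and was 4.38-fold lower (adjusted p = 4.9e-05) in RISDD and 3.99-fold lower (adjusted p = 0.000537) in SDDIR.

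Type IX collagen, a partner of type II on cartilage fibrils, was scarce in these cells. Col9a2 ranged over 0 to 1.58 in RISDD, 2.37 to 4.23 in SDDIR, 20.9 to 29.3 in SDD and 25.2 to 32.0 in NIL and was 15.1-fold lower (adjusted p = 7.22e-05) in RISDD and 6.24-fold lower (adjusted p = 0.00458) in SDDIR. In SDDIR against SDD, the call of Col9a2 ended without SDDIR B (adjusted p = 0.0513). With a pseudocount of 10 its log2 changes were -1.70 in RISDD and -1.41 in SDDIR, against -3.92 and -2.64 with 1. Col9a1 (2.02 to 6.18 in RISDD, 5.93 to 7.11 in SDDIR, 1.84 to 30.4 in SDD and 6.51 to 31.1 in NIL) and Col9a3 (3.03 to 8.69 in RISDD, 2.37 to 11.0 in SDDIR, 8.70 to 18.0 in SDD and 6.69 to 7.76 in NIL) were not called. Col20a1 was the 1 FACIT gene of the 7 tested that was called higher. It ranged over 28.3 to 40.3 in RISDD, 34.4 to 34.7 in SDDIR, 7.89 to 16.4 in SDD and 5.82 to 20.3 in NIL, and was 2.62-fold higher (adjusted p = 0.0298) in RISDD, while the SDDIR difference missed the threshold (2.75-fold, adjusted p = 0.0625). In RISDD, this call ended without RISDD A, B or C or SDD A or C (adjusted p between 0.0576 and 0.106).

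Against the general fall, Col13a1 and Col18a1 rose in both HRAS groups. Col13a1, a membrane collagen found at cell adhesion sites and at the neuromuscular junction, stood at 1390.2, 1357 and 1217 in RISDD, 1244 and 1761 in SDDIR, 69.9, 63.8 and 92.2 in SDD and 26.0, 55.7 and 69.9 in NIL. Every HRAS library was above every SDD library. The gene was 17.5-fold higher in RISDD (log2 change 4.13, SE 0.32, adjusted p = 4.23e-06) and 19.6-fold higher in SDDIR (log2 change 4.30, SE 0.36, adjusted p = 3.79e-05) than in SDD. Col18a1, the basement membrane collagen whose end fragment is endostatin, stood at 33590, 33279 and 31913 in RISDD, 27531 and 38628 in SDDIR, 10389, 15064 and 13466 in SDD and 16164, 21249 and 32082 in NIL. It was 2.57-fold higher (adjusted p = 0.000994) in RISDD and 2.54-fold higher (adjusted p = 0.00475) in SDDIR than in SDD, but NIL C reached the HRAS range. Both calls held in RISDD against SDD in all 23 alternative analyses (other scalings, pseudocounts, filters, fits and tools, and each library left out); in SDDIR, the call of Col18a1 ended without SDDIR B (adjusted p = 0.0663). Col15a1, the other multiplexin, ranged over 115 to 307 in RISDD, 119 to 125 in SDDIR, 87.2 to 241 in SDD and 144 to 205 in NIL and was not called.

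The other membrane collagens were scarce, and 0 of the other 3 were called higher with HRAS. Col17a1, a hemidesmosome component of skin, ranged over 8.09 to 18.6 in RISDD, 5.08 to 13.0 in SDDIR, 41.8 to 53.0 in SDD and 43.5 to 63.1 in NIL, and was 3.61-fold lower (adjusted p = 0.00380) in RISDD and 5.14-fold lower (adjusted p = 0.00395) in SDDIR. In SDDIR, this call ended without SDDIR A (adjusted p = 0.0511), and its log2 change of -2.36 was -1.76 without SDDIR A, -2.97 without SDDIR B and -1.60 with a pseudocount of 10. Col23a1 ranged over 35.4 to 41.9 in RISDD, 8.47 to 14.2 in SDDIR, 30.9 to 59.8 in SDD and 44.8 to 109 in NIL, and was 3.81-fold lower (adjusted p = 0.00992) in SDDIR; RISDD overlapped SDD (log2 change -0.25, adjusted p = 0.651), and the SDDIR call ended without SDDIR A (adjusted p = 0.104). Col25a1, a neuronal membrane collagen that motor axons of the mouse need to grow into muscle, ranged over 16.2 to 21.3 in RISDD, 27.3 to 44.0 in SDDIR, 62.7 to 117 in SDD and 15.5 to 42.4 in NIL. It was 4.50-fold lower (adjusted p = 0.00150) in RISDD than in SDD, and 2.57-fold lower in SDDIR without passing the threshold (adjusted p = 0.0546).

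Col26a1 and Col28a1, which belong to none of these classes, were lower in RISDD but not called in SDDIR. Col26a1 stood at 32.2, 18.2 and 10.3 in RISDD, 97.4 and 121 in SDDIR, 413, 184 and 103 in SDD and 58.6, 22.3 and 40.8 in NIL, and was 10.3-fold lower (adjusted p = 0.000650) in RISDD; in SDDIR the adjusted p was 0.373. Col28a1, known from peripheral nerve in mouse, stood at 29.7, 16.2 and 15.0 in RISDD, 152 and 123 in SDDIR, 183, 197 and 136 in SDD and 379, 451 and 365 in NIL, and was 8.39-fold lower (adjusted p = 1.01e-05) in RISDD; in SDDIR the adjusted p was 0.535. SDDIR libraries overlapped SDD for both genes, and RISDD lay below SDDIR.

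**Figure D3:**
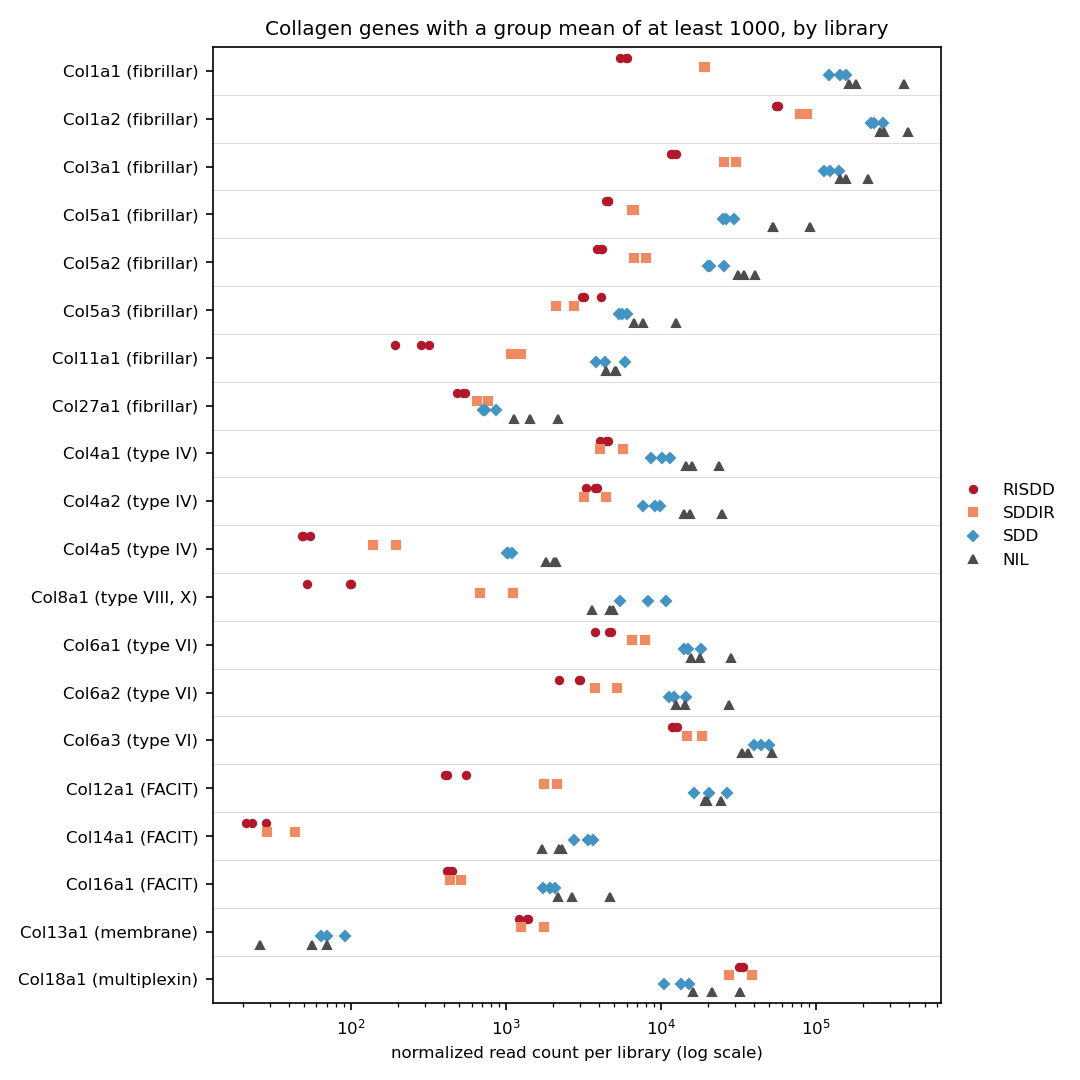
Normalized read counts (log scale) of the 20 collagen genes with a group mean of at least 1000, 1 symbol per library, with the groups stacked in each row in the order RISDD, SDDIR, SDD, NIL from top to bottom. For 18 of the 20 genes the RISDD libraries lie left of SDD, and Col13a1 and Col18a1 lie right of it. This count was not made over all genes and is not read as a trait of collagens.

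Some collagens also differed with the order of the cassette, in which HRAS and SNAP-p53DD change places together. In RISDD against SDDIR, 9 of the 39 genes were called lower and 1 higher, where 9.69% of all genes were called (5.05% lower and 4.64% higher), and the median log2 change was -0.55 beside 0.01 over all genes. Of these calls, 8 were at least 2-fold lower and 1 at least 2-fold higher (3.46% and 2.89% of all genes). The genes called lower were Col8a1 (10.7-fold, adjusted p = 0.000573), Col28a1 (6.78-fold, adjusted p = 0.000687), Col26a1 (5.68-fold, adjusted p = 0.0307), Col11a1 (4.47-fold, adjusted p = 0.000651), Col12a1 (4.28-fold, adjusted p = 0.000607), Col1a1 (3.27-fold, adjusted p = 0.00562), Col4a5 (3.21-fold, adjusted p = 0.000499), Col3a1 (2.33-fold, adjusted p = 0.00314) and Col5a2 (1.80-fold, adjusted p = 0.00761). RISDD libraries lay below every SDDIR library for 20 of the 39 genes and above every one for 3. The same count was not made over all genes, so it is not read as a trait of collagens. Col23a1 was the gene called higher (3.21-fold, adjusted p = 0.0380), and this call ended without RISDD A, B or C or SDDIR A or B or SDD C (adjusted p between 0.0649 and 0.286). Likewise the call of Col26a1 ended without RISDD B or C or SDDIR A or B or SDD B (adjusted p between 0.0523 and 0.188), the call of Col1a1 ended without SDDIR A or B (adjusted p between 0.0506 and 0.0643), and the call of Col5a2 ended without SDDIR A (adjusted p = 0.105).

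Other collagens were not called between the HRAS groups in the main fit. The change was small for Col13a1 (log2 change -0.17, 95% interval -0.95 to 0.62) and for Col18a1 (log2 change 0.01, 95% interval -0.58 to 0.60), the genes that rose. It was also small for Col4a1 (log2 change -0.14, 95% interval -0.64 to 0.35) and Col4a2 (log2 change -0.04, 95% interval -0.57 to 0.49). For Col14a1 the RISDD libraries lay below the SDDIR libraries without passing the threshold (log2 change -0.55, 95% interval -1.06 to -0.05, adjusted p = 0.169), and the same held for Col1a2 (log2 change -0.57, 95% interval -0.95 to -0.18, adjusted p = 0.0694). With 2 SDDIR libraries these intervals are wide, and they do not show that the genes stood at the same level. The number of calls rested on single libraries and changed without SDDIR A, which leaves a single SDDIR library. Without NIL C, which enters through the spread shared by all groups, 4182 of the 14207 genes were called, against 1377 with it. Of the collagen genes, 17 were then called. Col1a2 (adjusted p = 0.00123), Col5a1 (adjusted p = 0.000566), Col6a1 (adjusted p = 0.00398), Col6a2 (adjusted p = 0.0168) and Col6a3 (adjusted p = 0.0139) were among those called lower without NIL C. Some marker lists differed here too, where 5.05% of all genes were called lower and 4.64% higher. Called lower in RISDD than in SDDIR were 3 of 12 fibroblast markers. Called higher were 4 of 6 epithelial, 2 of 8 neuron, 2 of 4 endothelial, 1 of 3 osteoblast and 1 of 6 smooth muscle and pericyte markers. Their part in the collagen differences was not tested.

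Between the groups without HRAS, fewer collagen genes were called than in either HRAS group against SDD. In SDD against NIL, 11 of the 39 were called lower and 2 higher, where 17.6% of all genes were called (8.26% lower and 9.32% higher). At least 2-fold lower were 5 and at least 2-fold higher 2 (3.77% and 5.59% of all genes). The median log2 change was -0.42 beside 0.05 over all genes, and -0.26 without NIL C. Neither chain of type I collagen passed the threshold: Col1a1 had a log2 change of -0.67 (adjusted p = 0.0978) and Col1a2 of -0.31 (adjusted p = 0.187), and without NIL C these were -0.30 and -0.13. Col3a1 had -0.44 (adjusted p = 0.0903). The type V chains were called: Col5a1 was 2.36-fold lower (adjusted p = 0.00250) and Col5a2 1.61-fold lower (adjusted p = 0.00789) in SDD. So were 3 of the 4 type IV genes tested. Col4a1 was 1.76-fold lower (adjusted p = 0.0203), Col4a2 1.97-fold lower (adjusted p = 0.0123) and Col4a5 1.89-fold lower (adjusted p = 0.00349). SDD lay below every NIL library for all 5 of these genes. However, the call of Col4a1 ended without SDD B or C (adjusted p between 0.0583 and 0.0855), and the call of Col4a2 ended without SDD C (adjusted p = 0.0579). Conversely, Col1a1 was called lower without NIL B (adjusted p = 0.0367) and Col3a1 without NIL A (adjusted p = 0.0474).

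Col7a1, Col28a1, Col27a1, Col24a1, Col8a2 and Col18a1 completed the genes lower in SDD than in NIL. Col7a1 was 2.81-fold lower (adjusted p = 0.00471), Col28a1 2.33-fold lower (adjusted p = 0.0132) and Col27a1 1.98-fold lower (adjusted p = 0.0111). Col24a1 was 2.87-fold lower (adjusted p = 0.0348) and Col8a2 5.03-fold lower (adjusted p = 0.0309), but the call of Col24a1 ended without RISDD A or B or SDD A, B or C or NIL A or B (adjusted p between 0.0515 and 0.108) and the call of Col8a2 ended without RISDD A or SDD B or C or NIL A or C (adjusted p between 0.0502 and 0.108). Col18a1 was 1.74-fold lower (adjusted p = 0.0437), a call lost in 15 of the 23 alternatives; among these, it ended without RISDD A, B or C or SDDIR A or B or SDD A, B or C or NIL B or C (adjusted p between 0.0545 and 0.152). The call of Col28a1 ended without SDD C (adjusted p = 0.0615). The genes higher in SDD were Col25a1, the motor axon collagen (3.18-fold, adjusted p = 0.0197), and Col26a1 (5.15-fold, adjusted p = 0.0165). Of these, the call of Col25a1 ended without SDD A or B (adjusted p between 0.0676 and 0.0777) and the call of Col26a1 ended without SDD A (adjusted p = 0.0628). Col25a1 stood at 117, 102 and 62.7 in SDD and 32.6, 42.4 and 15.5 in NIL, with no overlap; both genes were lower in RISDD than in SDD. Col14a1 and Col8a1 had positive log2 changes of 0.65 and 0.86 that missed the threshold (adjusted p = 0.0530 and 0.0856).

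These calls moved with single libraries. Without NIL C, 1968 of the 14207 genes were called lower and 2160 higher, against 1174 and 1324 with it. Of the collagen genes, 9 were called lower and 5 higher without NIL C. Of those 5, Col14a1 (adjusted p = 0.0246), Col13a1 (adjusted p = 0.0364) and Col6a3 (adjusted p = 0.0373) had not been called with NIL C, while Col8a2 (adjusted p = 0.0521) and Col18a1 (adjusted p = 0.0593) were no longer called lower. Leaving out SDD B gave 8 calls in all and leaving out SDD C gave 7, against 13 with all libraries. Over all genes these fits gave 1533 and 1231 calls, against 2498. Marker lists also differed between SDD and NIL, where 8.26% of all genes were called lower and 9.32% higher. Leukocyte markers had a summed value of 547 to 1460 in SDD against 3420 to 13269 in NIL. Of the 8 tested, 3 (Cd68, Cx3cr1 and Lyz2) were called lower in SDD, and Cd3e was at 0 throughout NIL. Smooth muscle and pericyte markers summed to 4445 to 5301 in SDD against 10515 to 23568 in NIL, with 2 of 6 (Acta2 and Tagln) called lower and none at 0. Of the 12 fibroblast markers, 4 were called lower and 1, Pdgfra, higher in SDD, and none was at 0. Epithelial markers summed to 59.6 to 72.2 in SDD against 895 to 995 in NIL, with 3 of 6 (Dsp, Krt8 and Krt18) called lower and Cldn4 at 0 in both groups. Schwann cell and neural crest markers summed to 76.8 to 139 in SDD against 279 to 426 in NIL, with 3 of 5 (Foxd3, Ngfr and Erbb3) called lower. Osteoblast markers summed to 5967 to 10024 in SDD against 32038 to 49462 in NIL, with Spp1 called lower and Ibsp at 0. Neuron markers summed to 6460 to 11649 in SDD against 2525 to 4949 in NIL, with 3 of 8 (Map2, Elavl4 and Nefl) called higher. The endothelial marker Vwf was called lower in SDD. Their part in the collagen differences was not tested.

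**Figure D4:**
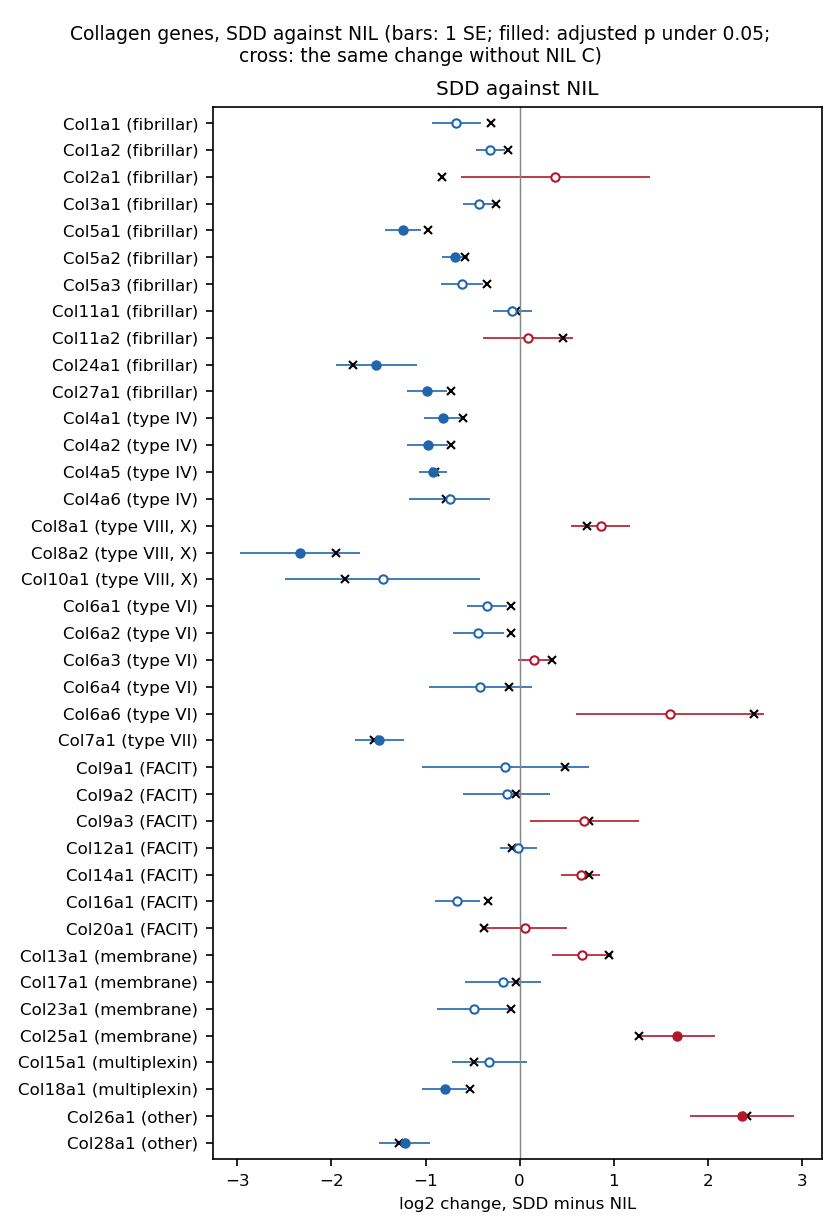
Log2 change of each of the 39 collagen genes in SDD against NIL, with bars of 1 SE; red marks a positive and blue a negative change, filled symbols mark an adjusted p under 0.05, and crosses show the change without the library NIL C. The 11 filled blue symbols lie left of 0, Col25a1 and Col26a1 lie right of it, and the crosses of Col1a1, Col5a1, Col4a1 and Col4a2 lie nearer to 0 than their symbols.

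Per kilobase of exon, the order of the collagen genes also changed. Lengths came from GENCODE M21, whose exons differ in part from those the authors quantified against. They are the union of all annotated exons (12.43 kilobases for Col1a2, 7.021 for Col18a1), which can exceed the length of the transcripts made. Ranks of genes that lie close may depend on this, such as Col18a1 and Col1a2 in RISDD or Col1a1 and Col1a2 in SDD. Col1a1 averaged 887 normalized reads per kilobase in RISDD, where it ranked 6 of the 39, and 2900 in SDDIR, where it ranked 3, against 21260 in SDD and 36130 in NIL, where it ranked 1 in both. Col18a1 averaged 4690 in RISDD, where it was highest, and 4712 in SDDIR, against 1848 in SDD and 3299 in NIL, where it ranked 8 in both. Col1a2 remained first or second in every group, at 4505 in RISDD, 6681 in SDDIR, 19680 in SDD and 24790 in NIL. Col13a1 moved to rank 13 in both HRAS groups, against 24 in SDD and 26 in NIL. Col2a1, Col9a1, Col9a3, Col10a1, Col11a2 and Col15a1 were the 6 genes called in none of the 4 comparisons.

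Most of the enzymes that modify collagen chains were called lower with HRAS, and a smaller share of the chaperones. Of 15 hydroxylases and collagen glycosyltransferases, 12 were called lower in RISDD and 10 in SDDIR against SDD, and 0 higher, where 22.6% and 13.9% of all genes were called lower. The list's median log2 changes were -0.89 in RISDD and -0.80 in SDDIR. P4ha3, a prolyl 4-hydroxylase subunit, averaged 61.9 ± 4.59 in RISDD, against 386 ± 21.9 in SDD (SD over 3 libraries each), and was 6.15-fold lower (adjusted p = 9.76e-06). Prolyl 3-hydroxylases fell too: P3h2 was 5.50-fold lower (adjusted p = 2.47e-05) and P3h3 3.80-fold lower (adjusted p = 2.09e-05) in RISDD, and P3h2 was 4.05-fold lower (adjusted p = 0.000631), P3h3 2.31-fold lower (adjusted p = 0.00246) and P3h1 2.28-fold lower (adjusted p = 0.000560) in SDDIR. Of 15 chaperone and secretion genes, 9 were called lower in RISDD and 7 in SDDIR, with 0 and 1 (Tmem38b) higher. Creb3l1, a transcription factor that drives Col1a1 in mouse osteoblasts, stood at 578, 699 and 574 in RISDD, 645 and 929 in SDDIR, 4335, 4065 and 4875 in SDD and 3968, 3233 and 5964 in NIL. It was 7.17-fold lower (adjusted p = 4.46e-06) in RISDD and 5.69-fold lower (adjusted p = 9.88e-05) in SDDIR. Serpinh1, the collagen chaperone of the endoplasmic reticulum, averaged 21501 ± 636 in SDDIR (SD, n = 2) against 42426 ± 3536 in SDD (SD, n = 3), and was 1.97-fold lower (adjusted p = 0.0163); this call ended without SDDIR A or B or SDD A (adjusted p between 0.0587 and 0.107). The peptidyl-prolyl isomerases Fkbp14 and Fkbp7 were 4.18-fold lower (adjusted p = 0.00128) and 2.82-fold lower (adjusted p = 0.0133) in RISDD, and the call of Fkbp7 ended without SDD A (adjusted p = 0.0627).

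Most genes for processing and crosslinking were also lower. Of 8 propeptide-processing genes, 6 were called lower and 1 (Pcolce2) higher in RISDD, and 4 lower in SDDIR, against SDD, which is 87.5% and 50% of the list called beside 42.6% and 22.5% of all genes. Pcolce, which speeds removal of the C-terminal propeptide, was 9.04-fold lower (adjusted p = 1.13e-06) in RISDD and 3.2-fold lower (adjusted p = 0.000543) in SDDIR. Adamts2, the proteinase that removes the N-terminal propeptide, was 7.62-fold lower (adjusted p = 7.35e-06) and 5.68-fold lower (adjusted p = 0.000167) in the same groups. Lox, the lysyl oxidase that starts collagen crosslinking, stood at 168, 226 and 176 in RISDD, 696 and 739 in SDDIR, 9131, 7263 and 7021 in SDD and 21301, 21792 and 22036 in NIL. All 4 groups were apart; Lox was 40.9-fold lower (adjusted p = 1.79e-08) in RISDD than in SDD, 3.79-fold lower (adjusted p = 0.000239) in RISDD than in SDDIR and 2.80-fold lower (adjusted p = 0.000273) in SDD than in NIL. Loxl1 was 3.43-fold lower (adjusted p = 0.00101) and Loxl2 3.03-fold lower (adjusted p = 3.43e-05) in RISDD, but Loxl4 was 2.33-fold higher (adjusted p = 0.00466) in RISDD than in SDDIR, although this call ended without SDDIR A (adjusted p = 0.0741). All 5 crosslinking genes were called in RISDD against SDD, 4 lower and Loxl4 higher.

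Receptors and turnover genes were mixed in RISDD, while in SDDIR those called were lower. Of 9 collagen receptors tested, 4 were called lower and 1 higher in RISDD, and 1 (Ddr1) lower in SDDIR, against SDD. That is 55.6% and 11.1% of the list called, where 42.6% and 22.5% of all genes were called, so the receptors as a list did not stand out. The gene called higher was Itga2, the collagen-binding integrin alpha-2, at 427, 416 and 507 in RISDD against 19.2, 98.6 and 98.9 in SDD, which is 7.67-fold higher (adjusted p = 0.00205), with a log2 change of 2.94, or 2.17 without SDD A. The collagen-binding kinases Ddr1 and Ddr2 were 1.94-fold lower (adjusted p = 0.00169) and 1.51-fold lower (adjusted p = 0.0214) in RISDD, although the call of Ddr2 ended without RISDD A, B or C or SDD B or C (adjusted p between 0.0550 and 0.0684). Of 9 degradation and uptake genes tested, 4 were called lower and 2 (Mmp9 and Timp1) higher in RISDD, and 6 lower in SDDIR, against SDD. That is 66.7% of the list called in each HRAS group, where 42.6% and 22.5% of all genes were called. In SDDIR, all 9 had a negative log2 change and 0 were called higher. Mrc2, an endocytic receptor for collagen, was 5.06-fold lower (adjusted p = 3.06e-06) in RISDD and 3.18-fold lower (adjusted p = 0.000214) in SDDIR. The gelatinase gene Mmp9 stood at 136, 407 and 204 in RISDD, against 27.1, 92.8 and 77.4 in SDD, and was 3.81-fold higher (adjusted p = 0.0142); this call ended without RISDD B or SDD A (adjusted p between 0.0580 and 0.0649). Timp1, an inhibitor of such proteases, was 3.02-fold higher (adjusted p = 0.00274) in RISDD than in SDDIR, and 5.62-fold lower (adjusted p = 0.000116) in SDD than in NIL. Against NIL, SDD had 5 of 15 hydroxylases and glycosyltransferases, 3 of 15 chaperone and secretion genes, 0 of 8 propeptide-processing genes, 3 of 5 crosslinking genes, 1 of 9 receptors and 6 of 9 turnover genes called lower, and 0 of these lists' genes called higher, where 8.26% of all genes were called lower and 9.32% higher. The chaperones, with 20% of the list called, and the receptors, with 11.1%, lay near the 17.6% of all genes called.

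**Figure D5:**
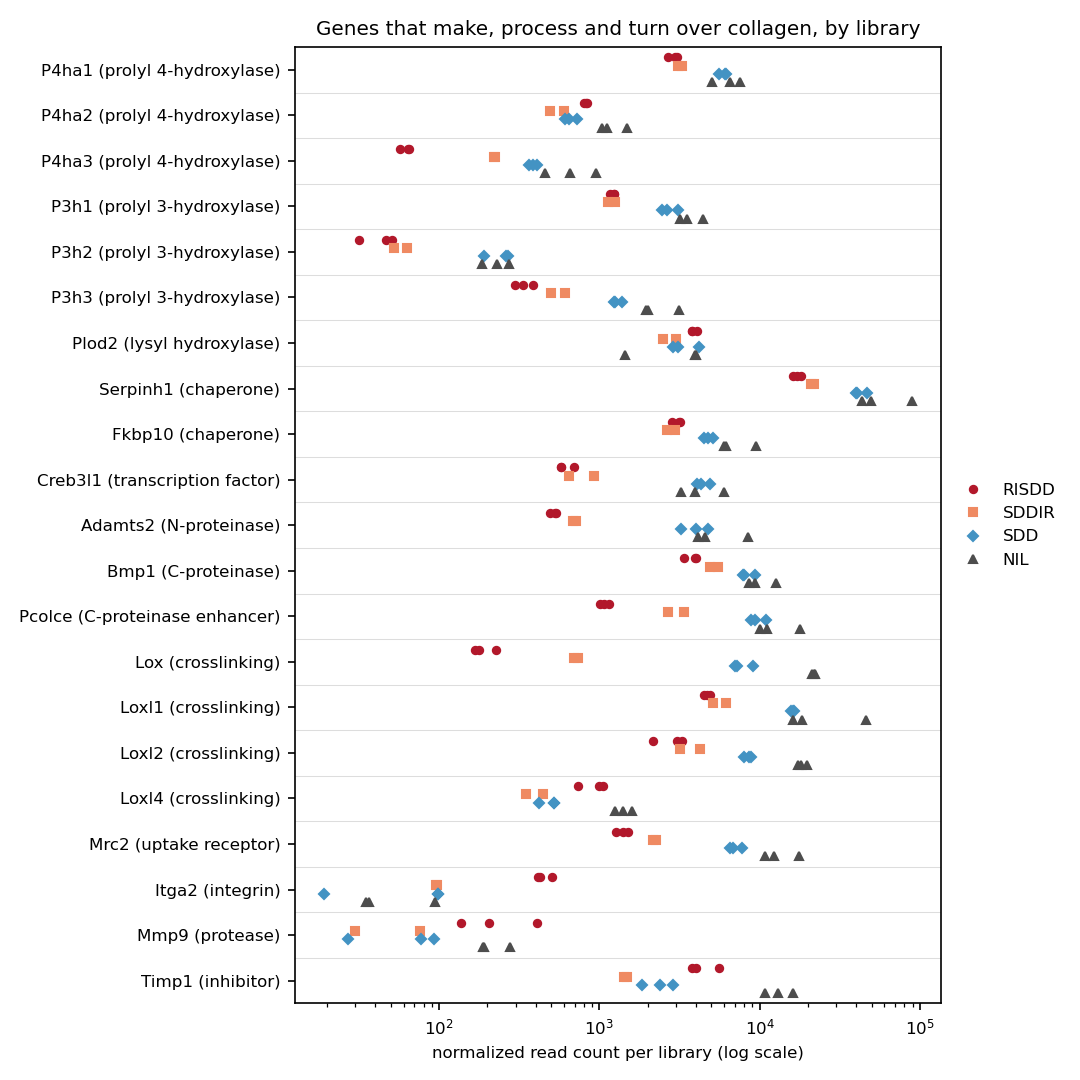
Normalized read counts (log scale) of 21 genes that make, process, crosslink, bind or degrade collagen, 1 symbol per library, with the groups stacked in each row in the order RISDD, SDDIR, SDD, NIL from top to bottom. Lox shows 4 separate groups, and Itga2 and Mmp9 are higher in RISDD than in SDD.

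RefSeq start windows of the same 300 bases were at hand for 32 of the 39 genes. They are shown for Col1a2, the most abundant gene with a window among those called lower, and Col13a1, the gene with the largest rise, and capitals mark matches to the motifs searched. The motifs searched on both strands were the TATA box (TATAAA), the CCAAT box (CCAAT), the GC box (GGGCGG) and the AP-1 site (TGANTCA). Col1a2 lies at chr6:4505368-4505667 on the plus strand and Col13a1 at chr10:61979059-61979358 on the minus strand (GRCm38.p6).
Col1a2: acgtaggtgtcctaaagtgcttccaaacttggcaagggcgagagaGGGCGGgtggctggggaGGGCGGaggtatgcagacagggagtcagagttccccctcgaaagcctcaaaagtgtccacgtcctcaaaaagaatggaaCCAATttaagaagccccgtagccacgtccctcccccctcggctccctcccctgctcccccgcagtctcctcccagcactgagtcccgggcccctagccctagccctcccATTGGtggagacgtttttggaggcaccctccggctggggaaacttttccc
Col13a1: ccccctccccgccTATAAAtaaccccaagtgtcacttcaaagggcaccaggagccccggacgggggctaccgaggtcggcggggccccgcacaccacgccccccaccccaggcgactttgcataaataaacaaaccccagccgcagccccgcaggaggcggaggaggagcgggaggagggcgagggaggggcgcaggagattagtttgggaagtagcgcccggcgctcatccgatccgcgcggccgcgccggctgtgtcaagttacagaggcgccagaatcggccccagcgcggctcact
The Col1a2 window held GC box matches at -205 and -188, a CCAAT box at -109 and another, on the other strand, at 1, counted from the annotated start as position 1. The Col13a1 window held a TATA box match at -237. The TATA box was in 15.6% of the 32 collagen windows and in 15.7% of all 27025 gene windows, and the CCAAT box in 40.6% of the collagen windows and 41.1% of all. The GC box was in 65.6% of the collagen windows and 38.2% of all windows, and the AP-1 site in 3.12% (1 window) and 8.97%. These shares were not tested, and a match is a description of letters, not a site. Several collagen genes are neighbours on a chromosome: Col3a1 and Col5a2 on chromosome 1, Col4a1 and Col4a2 on chromosome 8, Col6a1 and Col6a2 on chromosome 10, and Col4a5 and Col4a6 on the X chromosome. Neighbours changed in the same direction in both HRAS groups against SDD, as did most of the other collagen genes.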

How the data were processed

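The deposited table holds signal values, gene counts that the authors had already scaled per library. The submitters' processing notes name Trim Galore 0.6.10, Salmon 1.10.3 and the GRCm39 build; which tool scaled the counts the sources used here do not say. All values (100%) were whole multiples of a single step per library (tolerance 0.001 of a step), so reads per library could be recovered. The heading SDDIR B stood on a pair of identical columns, counted as 1 library; 1 column was not used. These values are called SDDIR B after their heading, but whether they are replicate B or C is unsettled, also in the replicate block; the other of the 2 was not analysed here. Genes at 10 or more in at least 3 libraries were fitted with limma 3.58.1 (R 4.3.3) on log2(value + 1), all 4 groups together, with an intensity trend and robust moderation and Benjamini-Hochberg adjustment. A minimum count of 3 reads per library set the limit for genes at 0; such limits cover counting error only. The collagen genes, gene lists, tests and alternatives were chosen with earlier results of these data known. Every collagen gene is named; values per library are given for those with a group mean of at least 1000, or called with an absolute log2 change of at least 1 and a mean of at least 100. Of each other list, up to 3 called genes per comparison with the largest change were eligible. The code was tested on simulated data. On the recovered reads, edgeR 4.0.16 called 6067, 3205, 1397 and 2533 genes and DESeq2 1.42.0 called 6670, 4006, 2258 and 3641 in RISDD against SDD, SDDIR against SDD, RISDD against SDDIR and SDD against NIL, where limma called 6046, 3199, 1377 and 2498.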

Additional observations from a re-analysis of the deposited data

How the results depend on the processing

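Of the alternatives, 12 changed the fit or the scaling: pseudocounts of 0.5 and 10, no filter, a minimum value of 50, quantile or upper-quartile scaling, moderation without trend and robustness, array weights, a replicate block, a fit of only the 2 groups compared, and edgeR or DESeq2 on recovered reads. The other 11 left out a library each. Scaling to spike-ins was not run, since the table has 0 rows other than mouse genes. Quantile scaling moved the median log2 change of all genes in SDDIR against SDD to 0.101, from 0.012 in the main fit. The 28 calls of RISDD against SDD (25 lower, 3 higher) stayed within 1.5 times that number in every alternative, with 26 to 32 when a library was left out. In SDDIR against SDD, leaving out a library gave 16 to 28 calls, 14 to 25 lower and 1 to 3 higher. In SDD against NIL it gave 7 to 14 calls, 5 to 11 lower and 0 to 5 higher; the fit of only 2 groups gave 4 calls, 4 lower and 0 higher, array weights gave 0 higher and DESeq2 gave 4 higher. In RISDD against SDDIR it gave 6 to 17 calls, 6 to 15 lower and 0 to 2 higher; array weights gave 19 calls, 17 lower and 2 higher, the fit of only 2 groups gave 14 lower, and a pseudocount of 10, no filter and edgeR gave 0 higher. Why these numbers moved was not tested. Fits without a library have fewer samples. Calls over all genes moved as well, from 1377 to 4182 in RISDD against SDDIR without NIL C.

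The replicate block, which treats the letters A to C as pairs, gave 0 genes higher in RISDD against SDDIR and otherwise kept the numbers of calls within 1.5 times. Same-letter deviations of SDD and NIL correlated at 0.216, 0.190 and 0.0516. Over all pairs of groups the values were positive, from 0.000225 (RISDD and SDDIR, A) to 0.271 (RISDD and NIL, B). Different letters were not compared, so these values cannot decide whether the letters mark pairs.

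Signs changed only for genes that were not called. In SDD against NIL, Col12a1 had a log2 change of 0.15 with quantile scaling, 0.0036 with edgeR and 0.0043 with DESeq2, and -0.20 to 0.16 with a library left out, where Col11a1 had -0.254 to 0.0588. Leaving out a library gave Col27a1 -0.233 to 0.0132 in SDDIR against SDD. In RISDD against SDDIR it gave Col13a1 -0.416 to 0.0846, Col4a1 -0.39 to 0.10, Col4a2 -0.28 to 0.20 and Col18a1 -0.23 to 0.26. There Col18a1 also had -0.0276 with upper-quartile scaling, -0.191 with quantile scaling, -0.0787 with the replicate block, -0.0229 with edgeR and -0.0112 with DESeq2. Of 161 gene results, 49 lost a call and 17 gained one in at least 1 of the 23 alternatives. Genes of a few reads, such as Col6a4, Col6a6 and Col9a1 to Col9a3, are limited by depth.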
